A study of Mus musculus with 8 samples.

Results

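The hypoxia-inducible factor (HIF) genes and their regulators were examined in kidney RNA from 8 diabetic mice, 4 treated with recombinant FGF4 (rFGF4) and 4 with vehicle. The 10 genes were taken by name from the deposited table of 55401 genes, each matched 1 row, and all 10 were expressed highly enough to be tested among 15150 genes. They are the alpha subunits *Hif1a*, *Epas1* and *Hif3a*, the beta subunit *Arnt*, the prolyl hydroxylases *Egln1*, *Egln2* and *Egln3*, the ubiquitin ligase component *Vhl*, and the HIF-responsive genes *Bnip3* and *Ankrd37*. The series asked how rFGF4, a truncated human growth factor that was made non-mitogenic, alters gene expression in the diabetic kidney. Vehicle-treated mice carry the genotype label db/db model, rFGF4-treated mice carry the treatment label rFGF4 treatment, and the published account of the RNA sequencing names streptozotocin-induced diabetic male mice instead, so which diabetes model all 8 mice share is not settled. The labels give no dose, age or duration, and the methods describe intraperitoneal injection every other day with phosphate-buffered saline as vehicle. The titles number the rFGF4 libraries 1, 2, 3 and 5 and the vehicle libraries 2, 3, 4 and 5, and each library is taken here as 1 mouse. No non-diabetic kidney was among the samples analysed here, so differences are between treatments within diabetes.

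HIF is a dimer of an oxygen-sensitive alpha subunit and the stable beta subunit ARNT. In the presence of oxygen the prolyl hydroxylases PHD2, PHD1 and PHD3, encoded by *Egln1*, *Egln2* and *Egln3*, modify the alpha subunits, which are then bound by VHL, ubiquitinated and degraded. When oxygen falls, the dimer binds a short core sequence in regulatory DNA and activates genes of glycolysis, angiogenesis, erythropoiesis and mitophagy. In the kidney HIF-1 alpha is known mainly from tubule cells, whereas HIF-2 alpha, encoded by *Epas1*, is known from endothelial and interstitial cells, including those that make erythropoietin. *Egln3* is itself induced by HIF, which closes a feedback loop. Much of this control acts on protein, and the values here are of RNA alone.

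Of the 10 genes *Egln3*, *Hif3a* and *Ankrd37* had the smallest p-values, and *Bnip3* is a classical HIF target with nearly equal group means. The sequences upstream of these 4 genes are shown. They are RefSeq sequences on GRCm38.p6, read 5′ to 3′ toward the transcription start and ending before the first annotated exon base, and capitals mark the HIF core ACGTG or GCGTG on either strand (so also CACGT or CACGC).
Egln3 (chr12:54203875-54204124, minus strand): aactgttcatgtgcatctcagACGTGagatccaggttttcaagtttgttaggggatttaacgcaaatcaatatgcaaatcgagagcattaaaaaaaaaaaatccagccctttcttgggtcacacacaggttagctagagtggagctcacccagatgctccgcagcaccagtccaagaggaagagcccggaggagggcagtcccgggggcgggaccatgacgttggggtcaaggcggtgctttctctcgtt
Hif3a (chr7:17062428-17062677, minus strand): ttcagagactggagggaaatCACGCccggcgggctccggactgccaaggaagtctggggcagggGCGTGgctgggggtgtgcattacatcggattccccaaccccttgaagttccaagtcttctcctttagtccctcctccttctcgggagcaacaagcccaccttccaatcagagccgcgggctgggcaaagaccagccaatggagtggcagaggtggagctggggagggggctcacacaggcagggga
Ankrd37 (chr8:45999868-46000100, minus strand): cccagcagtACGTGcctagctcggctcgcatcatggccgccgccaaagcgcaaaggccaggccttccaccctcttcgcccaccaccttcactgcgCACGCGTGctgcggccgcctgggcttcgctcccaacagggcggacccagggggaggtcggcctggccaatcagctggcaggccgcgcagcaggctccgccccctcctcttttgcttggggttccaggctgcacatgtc
Bnip3 (chr7:138909520-138909756, minus strand): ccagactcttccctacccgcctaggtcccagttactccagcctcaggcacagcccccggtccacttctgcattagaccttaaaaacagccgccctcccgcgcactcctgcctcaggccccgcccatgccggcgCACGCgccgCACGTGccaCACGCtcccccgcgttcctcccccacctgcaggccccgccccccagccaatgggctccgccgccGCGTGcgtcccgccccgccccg
The printed window of *Egln3* holds 1 match, that of *Hif3a* 2, that of *Ankrd37* 3 and that of *Bnip3* 5, where CACGTG and CACGCGTG each count as 2 overlapping matches. Upstream sequence was found for 9 of the 10 genes, in 10 windows of 250 bases, and 9 of these windows held a match, the exception being *Vhl*. Of all 32851 RefSeq windows of that length, 38.6% held one. A match is a string of letters and not evidence of binding.

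Expression was given as FPKM, fragments per kilobase of exon relative to the depth of the library, so levels can be compared between genes per length. *Bnip3*, a mitochondrial protein of mitophagy, was the most abundant of the 10, with 52.6 ± 9.26 FPKM (SD, n = 8 mice), above 94.5% of the tested genes. *Epas1* followed at 25.5 ± 4.33, *Egln2* at 20.4 ± 2.53, *Egln1* at 15.7 ± 1.22, *Egln3* at 13.4 ± 3.93 and *Hif1a* at 11.9 ± 1.72 FPKM (SD, n = 8 each). This order is over all 8 mice, and *Egln3* lay below *Hif1a* in vehicle-treated mice and above *Egln1* in rFGF4-treated mice by their group means. *Vhl* stood at 6.05 ± 1.42 and *Arnt* at 2.99 ± 0.825 FPKM, whereas *Hif3a* at 1.06 ± 0.676 and *Ankrd37* at 1.03 ± 0.531 FPKM (SD, n = 8 each) were above only 14.2% and 13.5% of the tested genes. By group means *Hif3a* was the higher of these last genes with rFGF4 and *Ankrd37* with vehicle. Neighbours in this order were compared by their difference in each of the 8 mice. *Egln1* and *Egln3*, *Egln3* and *Hif1a*, and *Hif3a* and *Ankrd37* did not differ beyond the spread of these differences between mice (two-sided exact permutation tests, adjusted p over 9 pairs of 0.221, 0.404 and 0.906). The other 6 neighbouring pairs had adjusted p of 0.0141 to 0.0352 in the same exact test. Over all 8 mice *Egln1* varied least, with a coefficient of variation of 7.75%, and *Hif3a* most, with 63.6%. These values pool both groups, so they include any difference between the groups.

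**Figure D1:**
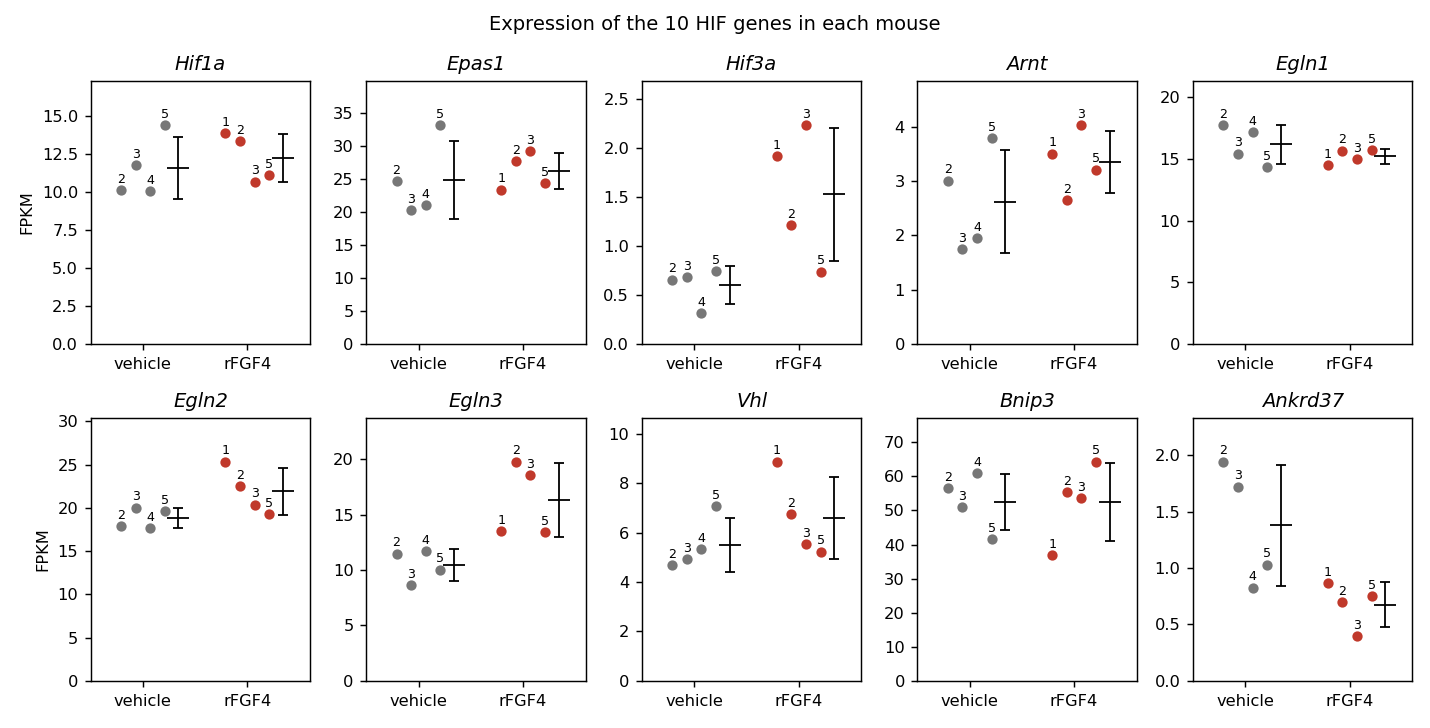
FPKM of each of the 10 genes (vertical axes, linear, from 0) in the 4 vehicle-treated (grey) and 4 rFGF4-treated (red) mice, with mouse numbers, and the group mean with its SD as black bars. The groups are apart for *Egln3* alone, with 8.61 to 11.7 against 13.4 to 19.8 FPKM, and most of the other genes overlap widely.

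The table holds FPKM but no read counts, so the depth behind a value is unknown; relative to vehicle mouse 2, single-fragment steps in low genes put the libraries between 0.905 and 1.12. Mitochondrial transcripts took 27.4% ± 7.25 of the summed FPKM with rFGF4 and 33.5% ± 6.33 with vehicle (SD, n = 4 each; two-sided exact permutation p = 0.257), and their part in the results was examined by leaving them out. On the first principal component 2 libraries, rFGF4 mouse 1 and vehicle mouse 5, stood apart from the other 6. These 2 had the highest summed level of 8 macrophage genes, 2024 and 2887 FPKM. The rest lay at 161 to 1029 FPKM with rFGF4 and at 111 to 934 FPKM with vehicle. All 8 of these genes were tested and had a log2 difference above 0, with a median of 0.44 and 0 past the study's threshold. The same 2 mice had the highest summed level of 8 lymphocyte genes, of which 3 were tested, at 2747 and 23350 FPKM. The rest lay at 25.6 to 1425 FPKM. Most of the sum in these 2 mice was *Igkc*, an immunoglobulin light chain gene, at 2640 and 22330 FPKM. The tissue carried its defining markers, since all 10 proximal tubule and all 6 podocyte genes were tested, and 6 adipocyte genes, included because the extraction label mentions adipose tissue, summed to at most 0.688 FPKM in any mouse, with *Retn* listed at the floor in all. All 6 podocyte genes had a log2 difference above 0, with a median of 0.28, beside 67.1% of all tested genes above 0. Of these 6 genes 1, *Synpo* (0.87), was past the study's threshold, beside 1.53% of all tested genes. Their summed level was 68.3 to 106 FPKM with rFGF4 and 48.5 to 91.7 with vehicle. Of 8 pericyte and fibroblast genes 7 were above 0 (median 0.42, 0 past the threshold, 37.4 to 147 and 26.9 to 190 FPKM). The part of these cell types in the results below was not tested. For several genes values without rFGF4 mouse 1 and vehicle mouse 5 are also given.

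The comparison of rFGF4-treated with vehicle-treated mice was made on log2(FPKM + 1) with limma's moderated test across all 15150 genes. On this scale the fold change of genes near 1 FPKM, such as *Hif3a* and *Ankrd37*, is understated. *Egln3* and *Hif3a* were higher and *Ankrd37* was lower at an unadjusted p under 0.05, that is 3 of the 10 genes, beside 4.62% of all tested genes (3.56% higher and 1.06% lower). The study further required a fold change, 1.5 upward or 0.67 downward, and on the log2(FPKM + 1) scale *Hif3a* alone passed both, beside 1.53% of all tested genes (1.09% higher and 0.442% lower). With rFGF4 mouse 1 and vehicle mouse 5 left out, 2 of the 10 passed, *Egln3* higher and *Ankrd37* lower, beside 273 of all genes. With a pseudocount of 0.1 in place of 1, which shrinks folds of low genes less, *Egln3*, *Hif3a* and *Ankrd37* all passed, beside 348 of all genes, against 232 with a pseudocount of 1. At an adjusted p under 0.05 limma found 0 of the 15150 genes, beside 700 at an unadjusted p under 0.05, and the smallest adjusted p was 0.918. The median log2 fold change was 0.15 over the 10 genes and 0.09 over all tested genes, and 7 of the 10 were above 0, as were 67.1% of all tested genes, although *Hif1a* and *Epas1* were below 0 when a common median ratio was used for scaling. The p-values measure the spread between these 8 libraries, which the published account treats as biological replicates and the labels only number. In whole kidney, fewer cells of a type and less RNA per cell cannot be told apart.

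Of the prolyl hydroxylases, *Egln3* (ENSMUSG00000035105, GRCm38 chromosome 12, 54178981 to 54203860, minus strand) had the clearest difference. It encodes PHD3, the HIF-inducible member of the family. Its FPKM was 13.5, 19.8, 18.6 and 13.4 in rFGF4 mice 1, 2, 3 and 5, and 11.5, 8.61, 11.7 and 10.0 in vehicle mice 2, 3, 4 and 5. Every rFGF4-treated mouse was above every vehicle-treated mouse, an absence of overlap seen in 1 of the 10 genes and in 3.33% of all tested genes. The means were 16.3 ± 3.34 and 10.5 ± 1.44 FPKM (SD, n = 4 each), a ratio of 1.56 (two-sided exact permutation test, p = 0.0286, the smallest that 4 against 4 allows). On the log2(FPKM + 1) scale the difference was 0.58 (standard error 0.17, 95% confidence interval 0.20 to 0.97, limma adjusted p = 0.918), which lies just under the log2 of 1.5, 0.585. Its unadjusted p was under 0.05 in 15 of the 16 alternative fits, and 0.0518 with the libraries scaled to a common median ratio, where the difference was 0.46. It was past the study's threshold in 9 of those 16 fits, among them those that left out mouse 1 (0.66) or 5 (0.67) of the rFGF4 group, mouse 2 (0.63) or 4 (0.64) of the vehicle group, or both mice that stood apart (0.65).

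*Egln1* (ENSMUSG00000031987, chromosome 8, 124908587 to 124949324) encodes PHD2, the main oxygen sensor for HIF-1 alpha. Its FPKM was 14.5, 15.7, 14.99 and 15.7 in the rFGF4-treated mice and 17.8, 15.4, 17.2 and 14.3 in the vehicle-treated mice. The ranges overlapped, and the log2 difference of -0.08 (95% confidence interval -0.32 to 0.16) did not exceed the spread between mice, and was 0.01 without mitochondrial transcripts. *Egln2* (ENSMUSG00000058709, chromosome 7, 27158658 to 27166802), which encodes PHD1, had 25.4, 22.6, 20.4 and 19.3 FPKM with rFGF4 and 17.9, 20.1, 17.7 and 19.7 with vehicle. Its log2 difference was 0.20 (95% confidence interval -0.07 to 0.47, limma adjusted p = 0.918). Without mitochondrial transcripts it was 0.30, with an unadjusted limma p of 0.0460. It was 0.08 with libraries scaled to a common median ratio and 0.13 without rFGF4 mouse 1. An exon of *Egln2* overlaps *Cyp2t4* on the opposite strand, which was at 0.0728 to 0.323 FPKM in all 8 mice.

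The make-up of the prolyl hydroxylase transcripts, a ratio within each library that does not depend on how libraries are scaled, did not overlap between the groups for *Egln1* and *Egln3*. *Egln3* made up 25.3%, 34.1%, 34.4% and 27.7% of the summed *Egln1*, *Egln2* and *Egln3* FPKM in rFGF4 mice 1, 2, 3 and 5, and 24.4%, 19.5%, 25.1% and 22.8% in vehicle mice 2, 3, 4 and 5. The groups did not overlap, although rFGF4 mouse 1 and vehicle mouse 4 were nearly level. *Egln1* made up 27.1%, 27.0%, 27.8% and 32.5% with rFGF4 and 37.7%, 34.98%, 36.9% and 32.6% with vehicle, again without overlap, and with rFGF4 mouse 5 next to vehicle mouse 5. The mean share of *Egln3* was 30.4% ± 4.58 against 23.0% ± 2.48 (SD, n = 4 each), and that of *Egln1* was 28.6% ± 2.59 against 35.5% ± 2.27 (SD, n = 4 each). The shares of a family sum to a whole, so these are not independent results: the FPKM of *Egln1* itself overlapped between the groups. Both had a two-sided exact permutation p of 0.0286, or 0.0857 adjusted over the 6 shares tested. With each mouse left out, the difference in share was 6.08 to 9.12 percentage points for *Egln3* and -8.21 to -6.21 for *Egln1*. The share of *Egln2* was 41.0% ± 4.43 with rFGF4 and 41.5% ± 4.11 with vehicle (SD, n = 4 each; exact permutation p = 0.943). The summed FPKM of the 3 genes, examined after the single genes had been seen, was 53.3, 58.0, 54.0 and 48.4 with rFGF4 and 47.1, 44.1, 46.6 and 44.0 with vehicle.

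**Figure D2:**
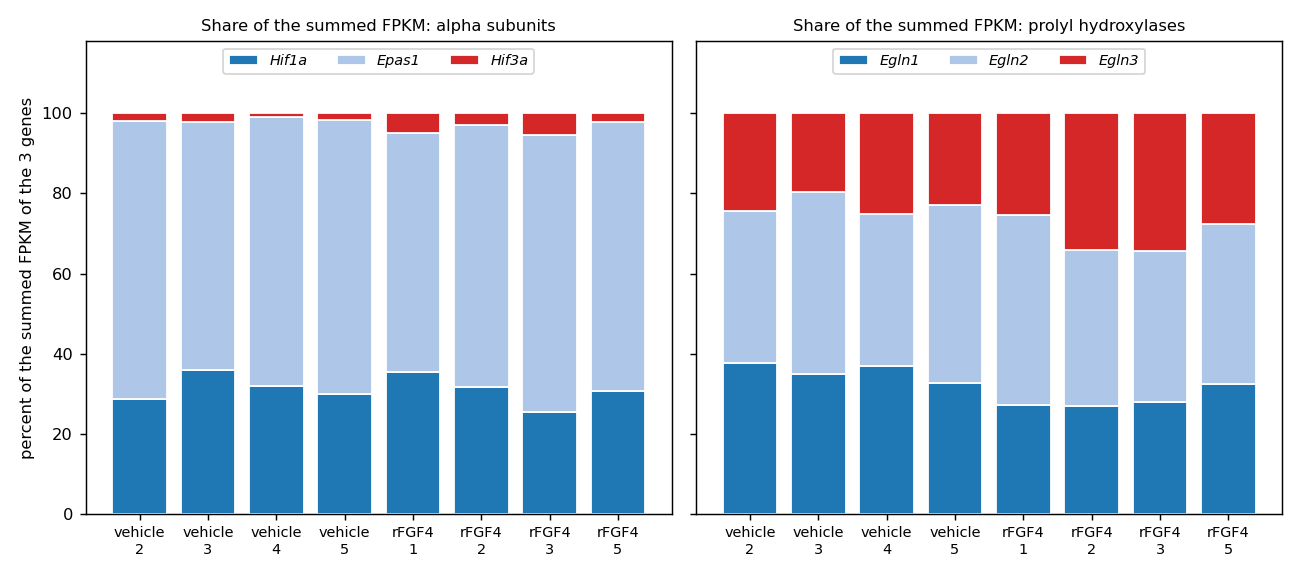
Percent of the summed FPKM of the 3 alpha subunit genes (left) and of the 3 prolyl hydroxylase genes (right), as stacked bars for each of the 8 mice. *Egln3* takes 25.3% to 34.4% of its family with rFGF4 and 19.5% to 25.1% with vehicle, and *Hif3a* is the thin top segment on the left, at most 5.30%.

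Among the alpha subunits, *Hif3a* (ENSMUSG00000004328, chromosome 7, 17031507 to 17062427, minus strand) differed most. It encodes HIF-3 alpha, some splice forms of which are known to oppose the other alpha subunits. Its FPKM was 1.92, 1.21, 2.23 and 0.740 in rFGF4 mice 1, 2, 3 and 5, and 0.657, 0.682, 0.315 and 0.745 in vehicle mice 2, 3, 4 and 5. In 3 of the 4 rFGF4-treated mice it was above all vehicle-treated mice, and in rFGF4 mouse 5 it was within their range. The means were 1.53 ± 0.676 and 0.600 ± 0.193 FPKM (SD, n = 4 each), a ratio of 2.54 (two-sided exact permutation test, p = 0.0571). The difference on the log2(FPKM + 1) scale was 0.63 (standard error 0.21, 95% confidence interval 0.15 to 1.11, limma adjusted p = 0.918), and with a pseudocount of 0.1 it was 1.16. It did not reach the fold of 1.5 without rFGF4 mouse 1 (0.54), without rFGF4 mouse 3 (0.49) or without vehicle mouse 4 (0.54). Nor did it with libraries scaled to a common median ratio (0.56) or with the mouse number as a block (0.45). Its unadjusted limma p was 0.0528 without rFGF4 mouse 1 and vehicle mouse 5. The gene was past the study's threshold in 10 of the 16 alternative fits. *Hif3a* made up 3.78% ± 1.57 of the alpha subunit FPKM with rFGF4 and 1.62% ± 0.467 with vehicle (SD, n = 4 each; exact permutation p = 0.0571, adjusted 0.114).

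*Hif1a* (ENSMUSG00000021109, chromosome 12, 73901375 to 73947530) and *Epas1* (ENSMUSG00000024140, chromosome 17, 86753700 to 86833410) had no difference beyond the spread between mice. *Hif1a* had 13.9, 13.4, 10.7 and 11.1 FPKM in the rFGF4-treated mice and 10.2, 11.8, 10.1 and 14.4 in the vehicle-treated mice. Its highest values were those of vehicle mouse 5 and rFGF4 mouse 1, the mice with the highest macrophage marker levels, whose part in the result was not tested. The log2 difference of *Hif1a* was 0.08 (95% confidence interval -0.26 to 0.42), and it was -0.04 with libraries scaled to a common median ratio. *Epas1* had 23.4, 27.7, 29.2 and 24.4 FPKM with rFGF4 and 24.7, 20.3, 21.1 and 33.2 with vehicle. Vehicle mouse 5 was also the highest of the 8 in *Epas1* and in the summed level of 8 endothelial genes (82.7 FPKM, where the rest of its group lay at 55.0 to 71.1 and the rFGF4-treated mice at 48.4 to 65.4). Of these 8 endothelial genes 7 had a log2 difference below 0, with a median of -0.20 and 0 past the threshold, and their part in the result was not tested. The log2 difference of *Epas1* was 0.10 (95% confidence interval -0.29 to 0.48), or -0.03 with that scaling. Without rFGF4 mouse 1 and vehicle mouse 5 it was 0.29, and its unadjusted limma p was 0.0573. With all 8 mice the intervals of *Hif1a* and *Epas1* lay inside the log2 of 1.5 on both sides. *Epas1* made up 65.5% ± 4.15 of the alpha subunit FPKM with rFGF4 and 66.8% ± 3.41 with vehicle, and *Hif1a* 30.8% ± 4.13 and 31.6% ± 3.25 (SD, n = 4 each). Exons of *Hif1a* overlap *Gm15283* on the opposite strand, at no more than 0.0480 FPKM, and *Gm49321* on the same strand, which was not analysed here.

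By the likeness of their levels across the 8 libraries, as a description, the tested genes closest to *Hif1a* were *Ripk2* (Pearson r = 0.993), *Zfp954* (r = 0.988) and *Sting1* (r = 0.988), all at their highest in vehicle mouse 5 and next highest in rFGF4 mouse 1. *Ripk2* and *Sting1* encode proteins of innate immune signalling. Closest to *Epas1* were *Gm5943* (r = 0.950), *Gnb4* (r = 0.920) and *Nsg1* (r = 0.907), all at their highest in vehicle mouse 5 and with values between 0.160 and 1.23 FPKM.

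The beta subunit *Arnt* (ENSMUSG00000015522, chromosome 3, 95434388 to 95497240) had 3.51, 2.65, 4.03 and 3.21 FPKM in the rFGF4-treated mice and 3.01, 1.74, 1.96 and 3.78 in the vehicle-treated mice. Vehicle mice 3 and 4 were the lowest, and the groups overlapped (log2 difference 0.29, 95% confidence interval -0.18 to 0.76). *Vhl* (ENSMUSG00000033933, chromosome 6, 113623959 to 113631633), which recognises hydroxylated alpha subunits, had 8.87, 6.75, 5.54 and 5.23 FPKM with rFGF4 and 4.69, 4.91, 5.32 and 7.07 with vehicle. Its highest values were again those of rFGF4 mouse 1 and vehicle mouse 5, and its log2 difference was 0.22 (95% confidence interval -0.21 to 0.64). The intervals of both genes reach past the log2 of 1.5, so an increase of that size is not excluded. Single mice moved both values. Without vehicle mouse 5 the log2 difference of *Arnt* was 0.44 and its unadjusted limma p was 0.0478, without both mice that stood apart it was 0.42, and without rFGF4 mouse 1 the log2 difference of *Vhl* was 0.08.

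*Ankrd37* (ENSMUSG00000050914, chromosome 8, 45996902 to 46005707, minus strand), an ankyrin repeat gene known as a HIF-1 target, was the only one of the 10 with a lower level at an unadjusted p under 0.05. Its FPKM was 0.867, 0.695, 0.396 and 0.748 in rFGF4 mice 1, 2, 3 and 5, and 1.94, 1.72, 0.825 and 1.03 in vehicle mice 2, 3, 4 and 5. The ranges overlapped by the pair of rFGF4 mouse 1 and vehicle mouse 4. The means were 0.676 ± 0.201 and 1.38 ± 0.536 FPKM (SD, n = 4 each), a ratio of 0.490 (two-sided exact permutation test, p = 0.0571). On the log2(FPKM + 1) scale the difference was -0.49 (standard error 0.18, 95% confidence interval -0.91 to -0.07, limma adjusted p = 0.918). Its unadjusted limma p was 0.0530 without rFGF4 mouse 2, 0.0772 without rFGF4 mouse 3, 0.0745 without vehicle mouse 2 and 0.0760 without vehicle mouse 3. It passed the study's threshold without vehicle mouse 4 (-0.60) and without both mice that stood apart (-0.61), and with a pseudocount of 0.1 the difference was -0.90. The annotated gene begins upstream of the RefSeq start whose window is printed above, and its exons overlap *Ufsp2* and *Lrp2bp* on the opposite strand. Whether the authors' counting used strand is not stated in the sources used here, so reads of overlapping exons may be shared. *Ufsp2* had 6.82 to 7.65 FPKM with rFGF4 and 6.28 to 7.38 with vehicle.

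*Bnip3* (ENSMUSG00000078566, chromosome 7, 138890836 to 138909519) had 37.0, 55.5, 53.7 and 64.3 FPKM in the rFGF4-treated mice and 56.6, 50.9, 60.9 and 41.6 in the vehicle-treated mice. The group means, 52.6 ± 11.4 and 52.5 ± 8.33 FPKM (SD, n = 4 each), were nearly equal (two-sided exact permutation test, p = 1). The lowest values were those of rFGF4 mouse 1 and vehicle mouse 5, the reverse of the pattern in *Hif1a* and *Vhl*. These 2 mice also had the lowest summed level of 10 proximal tubule genes in their groups, 1992 and 5192 FPKM, against 5326 to 9659 and 5203 to 9924 in the others. The part of tubule content in the level of *Bnip3* was not tested. Of the 10 tubule genes 8 had a log2 difference below 0, with a median of -0.41 and 0 past the threshold. The log2 difference of *Bnip3* was -0.01 (95% confidence interval -0.46 to 0.43), and 0.09 without mitochondrial transcripts.

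**Figure D3:**
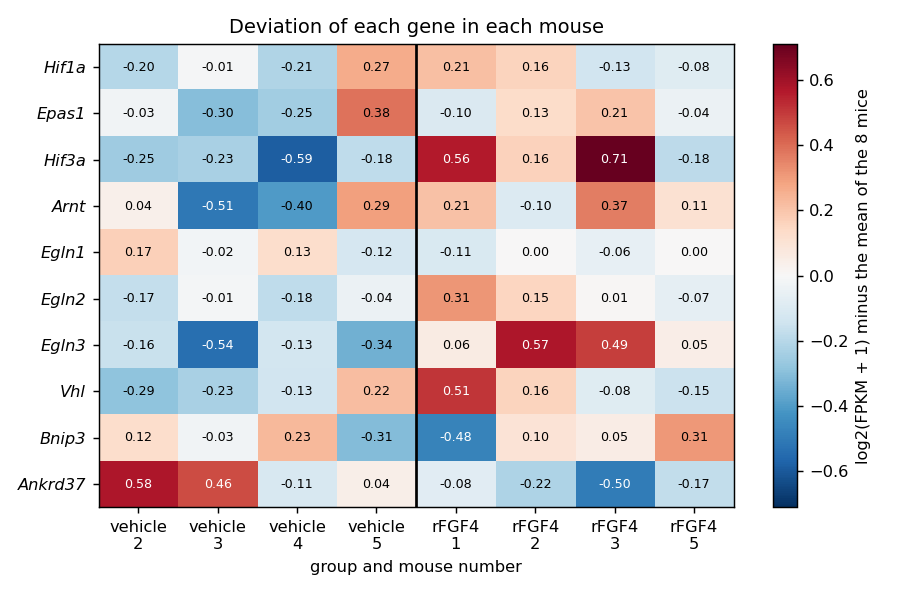
Heat map of log2(FPKM + 1) of each gene in each mouse minus the mean of that gene over the 8 mice (red above, blue below, value in each cell). *Hif1a* and *Vhl* are red and *Bnip3* is blue in both vehicle mouse 5 and rFGF4 mouse 1, *Egln3* is above its mean in all 4 rFGF4-treated mice, and *Ankrd37* is below its mean in all 4.

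Of 17 genes for partners and turnover of HIF, 17 were tested and 0 passed the study's threshold, beside 1.53% of all tested genes. Their median log2 difference was 0.15, and 13 were above 0, beside a median of 0.09 and 67.1% above 0 for all tested genes. *Hsp90ab1*, a chaperone of the alpha subunits, had 335 ± 67.0 FPKM with rFGF4 and 251 ± 24.3 with vehicle (SD, n = 4 each), a log2 difference of 0.40. *Cited2*, which competes with HIF for its coactivators, had 22.3 ± 3.27 and 15.5 ± 4.91 FPKM (SD, n = 4 each), a log2 difference of 0.54, or 0.29 without vehicle mouse 3. *Arnt2*, a relative of *Arnt*, had a log2 difference of 0.25. The lower genes with the smallest p were *Siah2*, a ubiquitin ligase that acts on prolyl hydroxylases, at -0.09, and *Rbx1* and *Eloc*, components of the VHL ligase, at -0.07 and -0.06 (0.02 and 0.03 without mitochondrial transcripts). None of these 6 had an unadjusted limma p under 0.05, although *Hsp90ab1* and *Arnt2* did without rFGF4 mouse 5 (0.54 and 0.32) and with array weights, *Hsp90ab1* did with no trend in the prior variance, *Cited2* did without vehicle mouse 5 (0.67), and all 3 did without mitochondrial transcripts. Without both mice that stood apart *Arnt2* was at 0.15 and *Siah2* at -0.02. *Usp20*, a deubiquitinase named here after its values were seen, was the only gene of the list whose groups did not overlap, with 3.24, 2.96, 3.69 and 2.87 FPKM with rFGF4 and 2.80, 1.76, 2.77 and 2.47 FPKM with vehicle, beside 3.33% of all tested genes without overlap. Its log2 difference was 0.29, and its unadjusted limma p was 0.0800.

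Of 15 HIF targets in glycolysis and glycogen metabolism, all tested, 0 passed the threshold and 0 had an unadjusted limma p under 0.05, beside 1.53% and 4.62% of all tested genes. Their median log2 difference was 0.01, with 8 above and 7 below 0, beside a median of 0.09 and 67.1% above 0 for all tested genes. The higher genes with the smallest p were *Gbe1* (0.22), *Gys1* (0.26) and *Pfkfb4* (0.30), and the lower ones were *Slc16a3* (-0.36), *Pfkl* (-0.22) and *Pdk1* (-0.21). *Gbe1* and *Gys1* encode enzymes of glycogen synthesis, *Pfkfb4* and *Pfkl* enzymes around phosphofructokinase, *Slc16a3* a lactate exporter and *Pdk1* an inhibitor of pyruvate oxidation. Single mice moved these values far. *Gys1* was at 0.07 without rFGF4 mouse 5, 0.42 without vehicle mouse 5 and 0.52 without both mice that stood apart. *Pfkfb4* was at 0.09 without vehicle mouse 2 and 0.50 without vehicle mouse 5, and *Pfkl* was at -0.07 without vehicle mouse 2. *Pdk1* was at -0.06 without rFGF4 mouse 1 and -0.35 without rFGF4 mouse 5. *Slc16a3* ranged from -0.54 to -0.22 and *Gbe1* from 0.14 to 0.36 with each mouse left out.

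Of 27 other HIF targets, all tested, 1 passed the study's threshold, and 1 higher and 1 lower had an unadjusted limma p under 0.05, beside 1.53%, 3.56% and 1.06% of all tested genes. Their median log2 difference was 0.12, and 17 were above 0, beside a median of 0.09 and 67.1% above 0 for all tested genes. *Bhlhe40*, a transcriptional repressor of the clock and hypoxia responses, had 51.2, 57.1, 43.1 and 31.2 FPKM in rFGF4 mice 1, 2, 3 and 5, and 25.8, 18.9, 27.2 and 25.7 in vehicle mice 2, 3, 4 and 5. The groups did not overlap, and the log2 difference was 0.86 (standard error 0.20, limma adjusted p = 0.918), or 0.74 to 1.02 with each mouse left out. *Fam162a*, which encodes a mitochondrial protein of hypoxic cell death, was the lower one. It had 29.4, 45.5, 37.6 and 29.3 FPKM with rFGF4 and 48.1, 57.2, 49.6 and 45.4 with vehicle. Its log2 difference was -0.51 (standard error 0.16, limma adjusted p = 0.918), and rFGF4 mouse 2 lay just above the lowest vehicle-treated mouse. *Plod2* (0.46), a collagen lysyl hydroxylase, and *Angptl4* (0.71), an inhibitor of lipoprotein lipase, were the next of the higher genes. *Higd1a* (-0.19), which encodes a mitochondrial protein, and *Tfrc* (-0.51), the transferrin receptor, were the next of the lower genes. None of these 4 had an unadjusted limma p under 0.05 in the fit above, although *Plod2* (0.48) and *Angptl4* (0.97) did with array weights. *Plod2* was at 0.25 without rFGF4 mouse 1, at 0.61 without vehicle mouse 5 and at 0.40 without both, and in the last pair of fits its unadjusted limma p was 0.0441 and 0.0319. *Tfrc* was at -0.23 without vehicle mouse 2 and at -0.72 without vehicle mouse 4, where its unadjusted limma p was 0.0451, and at -0.70 without both mice that stood apart. *Angptl4* was at 1.06 without vehicle mouse 3, where its unadjusted limma p was 0.0134. Among the best known targets, named here after their values were seen, *Vegfa* had 39.7 ± 9.22 FPKM with rFGF4 and 42.0 ± 5.92 with vehicle, and *Epo* 1.18 ± 0.519 and 1.15 ± 0.275 (SD, n = 4 each).

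**Figure D4:**
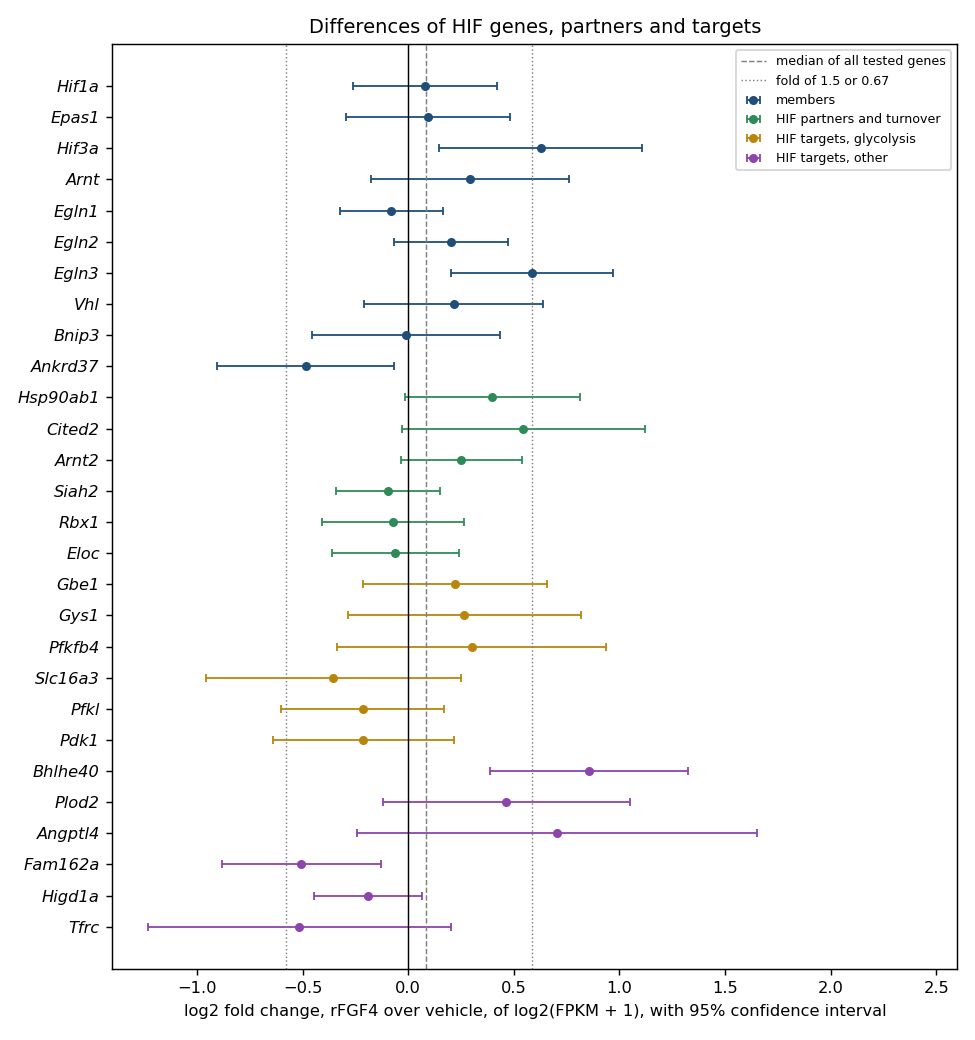
Differences between rFGF4-treated and vehicle-treated mice on the log2(FPKM + 1) scale (horizontal axis, points) with 95% confidence intervals from limma, for the 10 HIF genes and the named partners and targets. The interval excludes 0 for *Hif3a*, *Egln3*, *Ankrd37*, *Bhlhe40* and *Fam162a*, before any adjustment for the number of genes tested.

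Immediate early genes, which are transcribed within minutes of a stimulus, are given because their level ran with that of *Hif3a*. The summed FPKM of 10 such genes was 175, 184, 167 and 32.9 in rFGF4 mice 1, 2, 3 and 5, and 34.4, 68.1, 27.7 and 121 in vehicle mice 2, 3, 4 and 5. In rFGF4 mice 1, 2 and 3, where *Hif3a* was above the vehicle range, this sum was above that of all vehicle-treated mice. In rFGF4 mouse 5, where *Hif3a* was the lowest of its group, this sum was not. *Egln3* was nearly level in rFGF4 mice 5 and 1, at 13.4 and 13.5 FPKM, while their sums were 32.9 and 175. All 9 immediate early genes that were tested had a log2 difference above 0, with a median of 0.86 and 0 past the study's threshold (exact permutation p of the sum 0.114). Vehicle mouse 5 had the highest sum of its group and also its highest *Hif3a*, 0.745 FPKM, with *Egln3* at 10.0 FPKM. The part of these genes in the results for *Hif3a*, *Egln3* and *Bhlhe40* was not tested. Red blood cell genes, 5 in all, summed to 120 to 2657 FPKM with rFGF4 and 1139 to 4325 with vehicle. All 5 had a log2 difference below 0, with a median of -1.97 and 0 past the threshold (exact permutation p of the sum 0.114). Their part was not tested either.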

How the data were processed

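Kidney RNA libraries of 8 diabetic mice (4 rFGF4, 4 vehicle) were sequenced as paired ends after poly(A) selection. FPKM values were deposited by the authors, who aligned the reads, built transcripts in StringTie, combined these across libraries in Gffcompare and estimated expression. The submitters' processing notes name HISAT2 2.0, Bowtie 0.12.2, StringTie 1.3.0 and build mm8 without their roles, and the identifiers are Ensembl genes, of which 55141 of 55401 are in GENCODE M21 (GRCm38), the source of coordinates. The value 0.0001 stands in place of 0. The deposited fold changes, p-values and q-values of the authors' own comparison, which hold their findings, were not used. FPKM columns without a sample numbered 0.

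Groups came from the sample labels and mouse numbers from the titles. Genes with at least 0.5 FPKM in 4 or more libraries were compared as log2(FPKM + 1) with limma 3.58.1 (R 4.3.3, trended prior variance, Benjamini-Hochberg adjustment over all tested genes). The study's count-based test was not run, since no counts were at hand. The fold threshold was applied to differences of log2(FPKM + 1). Single values were compared by two-sided exact permutation tests (scipy 1.17.1). The procedure was checked on simulated data. Of 2 rows named *Aldoa* the more abundant was used. Depth is unknown, so no counting interval was calculated.

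The members and lists were chosen with earlier results of these data known. The text names the 10 genes, from each other HIF list any gene past the threshold and up to 3 genes in each direction ranked by p, and the 3 genes most like *Hif1a* and *Epas1*; others are described as named after their values were seen. Alternatives were another pseudocount, no filter, scaling to a common median ratio, removal of mitochondrial transcripts, no trend, array weights, each mouse left out and a block for mouse number. Leaving out both mice that stood apart was added after seeing the data. Figures were drawn with matplotlib 3.10.9.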

Additional observations from a re-analysis of the deposited data

Results flagged for a closer look

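In the 56 groups of 4 mice behind the 28 genes named by rule, 1 library was far from the others by Dixon's criterion, where chance gives about 2.8. *Pfkl*, the liver-type phosphofructokinase, had 16.2 FPKM in vehicle mouse 2 and 10.1 to 11.1 FPKM in the other vehicle-treated mice, a gap that took 0.831 of the range of the group and just exceeded the criterion. None of the 10 HIF genes was picked out in this way.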

How the results depend on the processing

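With 4 mice a group and no counts, small differences and counting error cannot be resolved, and the cause of the changes below was not tested. The number of the 10 HIF genes past the study's threshold was 1, against 3 with a pseudocount of 0.1, 0 with a common median ratio, 2 without mitochondrial transcripts, 2 with array weights, 2 with rFGF4 mouse 1 and vehicle mouse 5 both left out, and 0 to 2 with each mouse left out. The 0 was found without rFGF4 mouse 3, and 2 without rFGF4 mouse 5, vehicle mouse 2 or vehicle mouse 4. The mouse numbers did not pair the mice (correlations of same-numbered deviations of -0.229, -0.155 and -0.393), and with the mouse number as a replicate block 2 of the 10 genes, 263 of all genes and 1 glycolysis target passed. With this block *Egln3* and *Ankrd37* were those past the threshold, and *Hif3a* was not, at a log2 difference of 0.45 with an unadjusted limma p of 0.124. Of all tested genes 232 passed (165 higher, 67 lower), 348 with a pseudocount of 0.1, 273 without both mice that stood apart, 496 with array weights, and 188 to 580 with each mouse left out, with 580 without rFGF4 mouse 5 and 434 without vehicle mouse 5. The split was 92 higher and 92 lower with a common median ratio, and 280 higher and 41 lower without mitochondrial transcripts. Among partners and turnover genes 1 passed without mitochondrial transcripts, and 0 to 1 with each mouse left out (1 without vehicle mouse 5). Among other targets 2 passed with a common median ratio, 4 with array weights, and 1 to 3 with each mouse left out, with 3 without rFGF4 mouse 5 and 2 without rFGF4 mouse 2 or vehicle mouse 3, 4 or 5. At an adjusted p under 0.05, 1 gene was called with no filter and without vehicle mouse 2, 4 or 5.

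Log2 differences that changed sign were those of *Hif1a* (-0.0433 with a common median ratio and -0.0378 with the block), *Epas1* (-0.0306 with a common median ratio), *Egln1* (0.0144 without mitochondrial transcripts), *Rbx1* (0.0214 likewise), *Eloc* (0.0298 likewise, and -0.141 to 0.0122 with each mouse left out) and *Bnip3* (0.0874 without mitochondrial transcripts, 0.221 with the block, 0.042 without both mice that stood apart, and -0.115 to 0.147 with each mouse left out). On the FPKM scale without mitochondrial transcripts the difference of *Hif3a* was 1.02 and that of *Egln2* 4.57 (exact permutation p = 0.0286 each), and that of *Egln1* was 0.0743. With each mouse left out the FPKM difference of *Epas1* was -0.155 to 4.16 and that of *Bnip3* -3.79 to 5.33, and the differences in share were -2.40 to 0.938 percentage points for *Hif1a*, -2.92 to 0.620 for *Epas1* and -2.68 to 0.814 for *Egln2*. With 3 mice against 4 the smallest exact p is 0.0571, so these values carry no test. *Egln3*, *Hif3a*, *Arnt*, *Egln2* and *Vhl* stayed higher and *Ankrd37* stayed lower in all 16 alternative fits.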

Other observations

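Some hypoxia-responsive genes spread widely between mice of one group, and they were picked for mention by their values. *Gapdh*, a glycolytic enzyme often used as a loading reference, ranged from 8.44 FPKM in rFGF4 mouse 1 to 92.8 FPKM in rFGF4 mouse 5. In vehicle-treated mice it lay at 37.1 to 86.9 FPKM. *Aldoa*, *Pgk1*, *Eno1* and *Ldha*, also of glycolysis, had 246, 152, 110 and 134 FPKM in rFGF4 mouse 1. Their ranges over the 8 mice were 239 to 320, 152 to 217, 109 to 140 and 113 to 156 FPKM. Why *Gapdh* spread more than these was not tested. *Ak4*, a mitochondrial adenylate kinase, had 16.5, 68.1, 8.18 and 86.4 FPKM in rFGF4 mice 1, 2, 3 and 5. *Car9*, a carbonic anhydrase, had 2.75 FPKM in rFGF4 mouse 1 and 9.34 to 19.8 FPKM in the other 7 mice.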
